A study of Homo sapiens with 20 samples.

Results

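The genes described here are 37 components of homologous recombination, the copying repair of DNA double-strand breaks, and of the Fanconi anaemia pathway, which removes crosslinks between the DNA strands. They were taken by gene name, and each was found once among the 60483 genes that the deposited expression table lists. RNA was sequenced from 5 human multiple myeloma models, that is, cultured lines of malignant plasma cells. ANBL6, ARP1, RPMI8226 (RPMI-8226 in the labels) and U266 carried the label wild type, and ANBL6BR was the bortezomib-resistant form of ANBL6, bortezomib being a proteasome inhibitor used against myeloma. Each model was given either the vehicle DMSO or indirubin-3'-monoxime (I3MO), an indirubin derivative known as a kinase inhibitor and a ligand of the aryl hydrocarbon receptor. The labels gave 5 µM of I3MO for both ANBL6 lines and 10 µM for the other 3 models, and every group held 2 libraries, 20 in all. The sources used here did not give the treatment length or say whether the 2 libraries of a group came from separate cultures, so p-values here measure the spread between those libraries, which may be technical. ANBL6BR is a single resistant line, and dose differed with model wherever either ANBL6 line was set beside ARP1, RPMI8226 or U266.

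In homologous recombination the MRE11-RAD50-NBN complex and RBBP8 start to trim a broken end, EXO1 and the helicase BLM extend the single-stranded tail, and BRCA1, PALB2 and BRCA2 prepare that tail for strand invasion, aided by complexes of RAD51B, RAD51C, RAD51D, XRCC2 and XRCC3. At a crosslink FANCM recruits a core of Fanconi proteins, whose ligase FANCL with the conjugating enzyme UBE2T attaches ubiquitin to FANCD2 and FANCI, and recombination then finishes the repair. The kinases ATM and ATR report breaks and stalled forks to CHEK2 and CHEK1, and many of these genes are transcribed mostly in dividing cells, in S and G2 phase.

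Levels are the authors' FPKM, in which a gene's fragments are divided by its length in kb and by the depth of the library. The steps between low values gave library totals of 12.11 to 20.31 M (mega) fragments, and each of the 37 genes had between 6 and 4113 fragments in any library. The length behind the FPKM summed the exons of all transcripts of a gene, a median of 2.99 times its merged exons over the 37 genes, so FPKM understates genes with many transcripts and levels are compared within a gene only. Differences are on the scale log2(FPKM + 1), which shrinks the change of genes near or under 1 FPKM, and were tested with limma over 15687 genes that reached 1 FPKM in at least 2 libraries. Of the 37 genes 33 reached that level, some of them only in the models where they are high, and RAD51B, RAD54B, RAD52 and FANCB did not. Of 8 plasma cell markers, 7 were at 1 FPKM or more in all 20 libraries, the exception being SLAMF7. Of 4 markers each of monocytes, T cells, stroma and epithelium, 4, 3, 3 and 2 stayed under 1 FPKM in every library, as did 2 of 3 red cell markers, and the exceptions were the T cell receptor gene TRAC (up to 5.19 FPKM), the collagen gene COL1A1 (up to 4.18), KRT18 and EPCAM (up to 20.2 and 17.2) and the globin gene HBB (up to 5.70). These are bulk values, in which fewer cells of a kind and less RNA per cell cannot be told apart. Some exons are shared with neighbours, and the sources used here did not say whether counting used strand. The shared part was 76.7% of the exon bases of XRCC3 (with KLC1 on the other strand), 59.1% of RAD54B (with FSBP), 25.1% of RAD54L (with LRRC41), 23.6% of FANCA (with ZNF276) and 19.7% of FANCL (mostly with VRK2). It was 16.4% of ATR (with AC109992.1), 16.2% of MSH6 (with FBXO11), 11.3% of FANCF (with GAS2) and 9.45% of RAD51D (with RAD51L3-RFFL and others). The values of all these genes are less certain. In the rest of the list it was at most 6.7%. BRCA1, CHEK2 and FANCD2 also have pseudogene copies with which reads could have been exchanged.

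The response of the repair genes to I3MO had opposite signs in different models. In U266, 17 of the 33 tested genes fell and none rose, while of all tested genes 26.2% passed the test there, 15.8% as falls. The summed markers of other cells moved there as well, by 1 tested gene each: T cell markers summed to 5.95 to 6.17 FPKM with DMSO and 3.02 to 3.79 with I3MO (TRAC, with CD2, CD3D and CD3E under 1), red cell markers to 1.59 to 2.02 and 0.813 to 0.922 (HBB) and stromal markers to 1.88 to 1.97 and 2.49 to 4.205 (COL1A1). The 8 plasma cell markers summed to 502 to 503 FPKM with DMSO and 213 to 227 with I3MO in U266, where 3 of them passed, all as falls. Their sum was also lower with I3MO in RPMI8226 (380 to 419, then 243 to 260), ARP1 (491 to 561, then 412 to 420) and ANBL6 (300 to 324, then 273 to 286). In ANBL6BR the DMSO range (224 to 580) held the I3MO range (363 to 378). The part of these movements in the results was not tested. In ANBL6BR, where 18.4% of all tested genes passed, 9 repair genes fell, against 8.4%, and 3 rose, against 10%. In ARP1, where 37% passed, 16 rose, against 23.1%, and 4 fell, against 13.9%. RPMI8226 had 2 genes that fell, against 8.62%, and none that rose, against 6.19%, and ANBL6 had 1 gene that rose, against 4.1%, and none that fell, against 3.87%. The median change over the 33 genes was -0.36 in U266, -0.22 in ANBL6BR, 0.29 in ARP1, -0.08 in RPMI8226 and -0.07 in ANBL6, beside medians over all tested genes of -0.02, 0, 0.03, -0.01 and 0.01. CHEK1, EXO1 and FANCA fell in 3 models each, no gene rose in 3, and BLM passed the test in none. BARD1, CHEK1, FANCD2, FANCL, XRCC2 and UBE2T passed it in opposite directions in different models, of which BARD1 and CHEK1 in ARP1 and UBE2T in ANBL6 did not pass with the transcript-length trend removed. The ARP1 split moved with the scaling: with median-ratio size factors it was 11 higher and 7 lower (2595 higher and 3472 lower over all genes, in place of 3625 and 2176). With the transcript-length trend removed it was 10 higher and 6 lower, beside 2533 higher and 3265 lower over all genes then tested. That fit kept only genes with a coding transcript. In RPMI8226 median-ratio scaling gave 1 higher (FANCG) and 2 lower. Without ARP1 DMSO replicate 1 or without ARP1 I3MO replicate 1 only 7 genes passed in ARP1, without ANBL6BR I3MO replicate 1 only 6 in ANBL6BR, and without any 1 of the 4 RPMI8226 libraries 0 in RPMI8226. With each model fitted on its own 4 libraries 2 passed in U266, 2 in RPMI8226 and 0 in each of the others, since a pair of libraries a group gives little information on the spread.

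**Figure D1:**
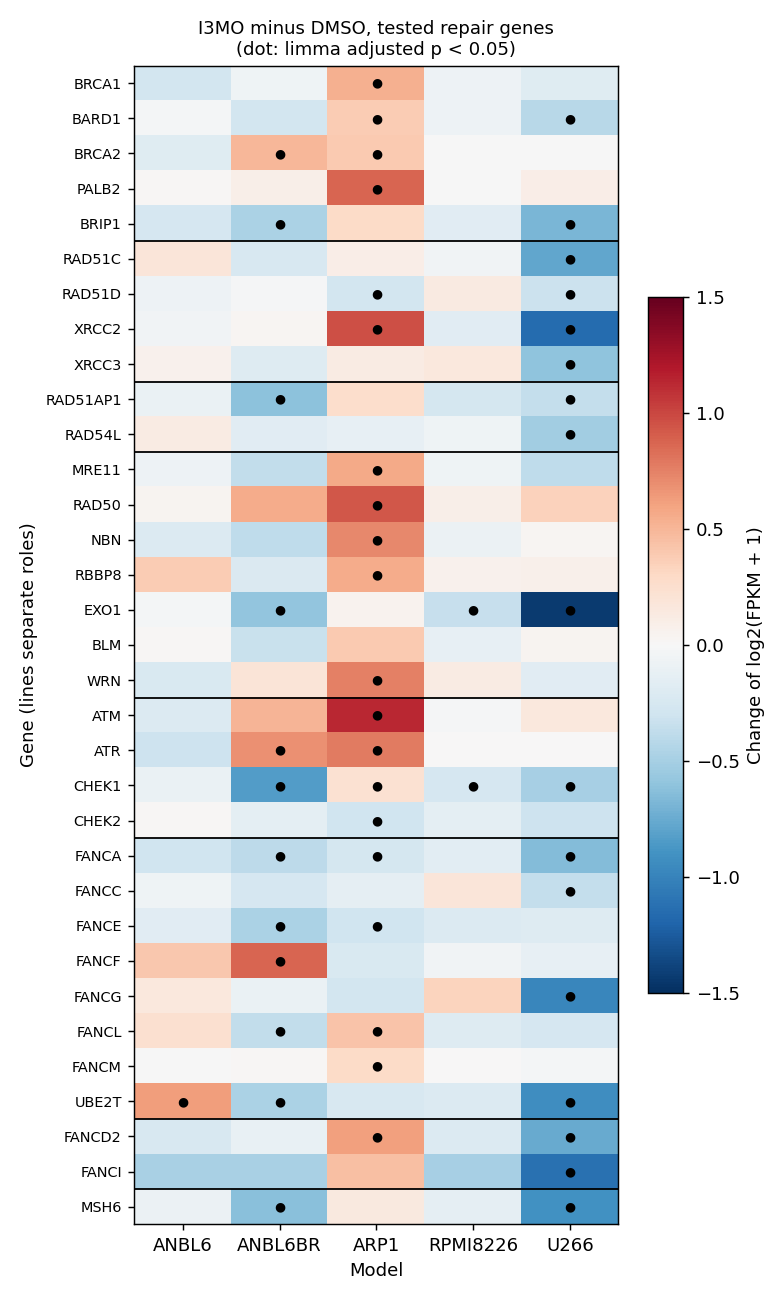
Change of each of the 33 tested repair genes (rows, grouped by role) with I3MO in the 5 models (columns), as the difference of mean log2(FPKM + 1), red for higher and blue for lower, with a dot where limma's adjusted p was below 0.05. The U266 column is mostly blue with 17 dots, and the ARP1 column is mostly red with 20 dots, 16 of them on genes that rose.

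Because the falling genes in U266 moved together, the 250 bases before 1 start of each gene were read from RefSeq (GRCh38.p14). There 33 of the 37 genes had an entry. Some genes had several listed starts, such as 2 for BRCA1, EXO1 and RAD54L, 3 for CHEK1 and 4 for MSH6. Only the first listed start with a whole window was read, so other promoters of these genes were not searched. E2F proteins switch on genes of the S phase, and the letters TTCCCGC or TTCGCGC or TTGCCGC or TTGGCGC were searched on both strands, without regard to overlap with other motifs. They stood in 6 of 16 promoters of the genes that fell in U266 (37.5%), in 1 of 14 of those that rose in ARP1 (7.14%) and in 9 of 33 of the list (27.3%), beside 3009 of 27305 of all promoters (11%). Among 13 replication genes read the same way, 7 held them (53.8%). CCAAT, the NF-Y letters, stood in 15 of 33 promoters of the list (45.5%) and in 33.0% of all. It stood in 8 of 16 of the genes that fell in U266 (50%) and in 5 of 14 of those that rose in ARP1 (35.7%). Among tested genes of the list called lower in no model, 6 of 11 promoters held CCAAT (54.5%) and 1 of 11 held the E2F letters (9.09%). Of the genes lower in both ANBL6BR and U266 6 of 7 held CCAAT (85.7%), and of the replication genes 11 of 13 (84.6%). The letters TTTGAA or TTCGAA, also searched, stood in 4 of 33 promoters of the list (12.1%) and in 14.6% of all. They stood in 3 of 16 of the genes that fell in U266 (18.8%). These matches are letters in a window and were not tested as sites. EXO1, XRCC2, UBE2T, MSH6 and FANCD2 fell in U266 without E2F letters in their windows, while BLM and FANCL held them and did not pass in U266. The following 4 are promoters of genes that fell in U266, picked because they hold E2F letters, which are in capitals. The fifth, PALB2, rose in ARP1 and has none in this window. RAD51AP1 is at chr12:4538640-4538889 on the plus strand, RAD54L at chr1:46247438-46247687 on the plus strand, FANCG at chr9:35079943-35080192 on the minus strand, FANCA at chr16:89816648-89816897 on the minus strand and PALB2 at chr16:23641311-23641560 on the minus strand, each written from 5′ to 3′ and ending 1 base before the start of the gene in RefSeq. The gene spans printed below come from another annotation (GENCODE), whose outermost starts of RAD51AP1, FANCG and FANCA lie inside these windows.
RAD51AP1: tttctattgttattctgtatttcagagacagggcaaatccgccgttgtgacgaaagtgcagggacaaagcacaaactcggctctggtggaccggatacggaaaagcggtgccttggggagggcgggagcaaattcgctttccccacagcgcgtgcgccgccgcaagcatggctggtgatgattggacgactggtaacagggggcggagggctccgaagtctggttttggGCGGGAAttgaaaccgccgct
RAD54L: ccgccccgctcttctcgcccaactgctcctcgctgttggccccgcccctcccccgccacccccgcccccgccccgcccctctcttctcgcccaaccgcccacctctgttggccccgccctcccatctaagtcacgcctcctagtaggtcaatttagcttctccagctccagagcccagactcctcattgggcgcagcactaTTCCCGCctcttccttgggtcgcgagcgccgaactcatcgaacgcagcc
FANCG: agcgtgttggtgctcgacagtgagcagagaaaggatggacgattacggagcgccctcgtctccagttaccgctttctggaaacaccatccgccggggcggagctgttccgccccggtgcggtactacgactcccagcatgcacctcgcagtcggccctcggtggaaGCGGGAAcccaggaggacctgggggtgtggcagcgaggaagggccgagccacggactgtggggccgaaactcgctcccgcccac
FANCA: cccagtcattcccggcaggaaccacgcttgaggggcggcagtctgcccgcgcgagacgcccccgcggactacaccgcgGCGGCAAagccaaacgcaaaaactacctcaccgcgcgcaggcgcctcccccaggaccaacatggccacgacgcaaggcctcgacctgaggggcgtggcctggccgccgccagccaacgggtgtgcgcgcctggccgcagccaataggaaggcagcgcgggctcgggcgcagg
PALB2: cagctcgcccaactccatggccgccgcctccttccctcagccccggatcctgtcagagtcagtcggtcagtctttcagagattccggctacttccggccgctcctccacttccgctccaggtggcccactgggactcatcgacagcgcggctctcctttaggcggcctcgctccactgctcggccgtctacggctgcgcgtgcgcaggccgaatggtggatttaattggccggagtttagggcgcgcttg

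Among the BRCA1 and BRCA2 complexes, BRCA1, PALB2 and BRCA2 rose in ARP1 together with BARD1, and BARD1 and BRIP1 fell in U266. BRCA1 (ENSG00000012048.18, chr17:43044295-43170245, minus strand), the ubiquitin ligase that promotes end resection, was at 0.319 and 0.677 FPKM with DMSO and 1.47 and 0.867 with I3MO in ARP1, a change of 0.53 ± 0.15 (SE, limma adjusted p = 0.0137). PALB2 (ENSG00000083093.8, chr16:23603160-23641310, minus strand), the bridge between BRCA1 and BRCA2, was at 0.759 and 0.961 FPKM with DMSO and 2.897 and 1.97 with I3MO there, a change of 0.87 ± 0.19 (adjusted p = 0.00308). Both I3MO libraries lay above both DMSO libraries for these genes, and in PALB2 the lower of the I3MO libraries was still over the higher DMSO library by more than the DMSO libraries differed. BRCA2 (ENSG00000139618.13, chr13:32315474-32400266, plus strand), which acts on the single-stranded tail, rose in ARP1, from 0.393 and 0.644 to 1.17 and 0.819 FPKM, by 0.39 ± 0.14 (adjusted p = 0.0399). It also rose in ANBL6BR, from 1.06 and 1.18 to 1.92 and 2.07 FPKM, by 0.50 ± 0.14 (adjusted p = 0.024). The groups did not overlap in either model, whereas in the other 3 models BRCA2 libraries with and without I3MO overlapped. BRCA2 was in ANBL6 0.866 and 0.983 with DMSO and 0.923 and 0.485 with I3MO and in RPMI8226 0.0773 and 0.0785 with DMSO and 0.0465 and 0.105 with I3MO FPKM. In U266 it was at 0.165 and 0.244 FPKM with DMSO and 0.335 and 0.0827 with I3MO. BARD1 (ENSG00000138376.9, chr2:214725646-214809711, minus strand), the obligate partner of BRCA1, rose in ARP1 and fell in U266. Its levels were 0.339 and 0.628 FPKM with DMSO and 1.08 and 0.786 with I3MO in ARP1, a change of 0.38 ± 0.12 (adjusted p = 0.0267), and 0.754 and 0.764 with DMSO and 0.432 and 0.217 with I3MO in U266, a change of -0.41 ± 0.12 (adjusted p = 0.0246). In the other 3 models its change did not pass the test, with 0.776 and 0.736 FPKM with DMSO and 0.891 and 0.575 with I3MO in ANBL6. BARD1 lay in ANBL6BR 1.27 and 1.03 with DMSO and 0.712 and 0.833 with I3MO and in RPMI8226 0.241 and 0.216 with DMSO and 0.14 and 0.19 with I3MO FPKM. BRIP1, the helicase that binds BRCA1, fell in U266 from 0.862 and 1.18 to 0.367 and 0.153 FPKM, by -0.68 ± 0.15 (adjusted p = 0.00407), and in ANBL6BR from 2.36 and 1.81 to 0.981 and 1.46 FPKM, by -0.48 ± 0.15 (adjusted p = 0.039). Each I3MO library was below each DMSO library in both models. BRCA1, BARD1 and BRCA2 no longer passed in ARP1 without its DMSO replicate 1 (adjusted p = 0.148, 0.24 and 0.266) or its I3MO replicate 1 (0.165, 0.213 and 0.286), the change of BRCA1 being 0.33 without the latter and that of BARD1 0.24 without the former. BARD1 in U266 was lost without DMSO replicate 1, DMSO replicate 2 or I3MO replicate 2 (adjusted p = 0.0908, 0.0979 and 0.154), BRIP1 in ANBL6BR without DMSO replicate 1 or I3MO replicate 1 (0.202 and 0.289), and BRCA2 in ANBL6BR without any 1 of its 4 libraries (0.0582 to 0.140). With the transcript-length trend removed the ARP1 changes were 0.23 (adjusted p = 0.0597) for BRCA1, 0.13 (adjusted p = 0.198) for BARD1 and 0.05 (adjusted p = 0.597) for BRCA2, and with median-ratio scaling 0.28 (adjusted p = 0.0652) for BARD1 and 0.28 (adjusted p = 0.099) for BRCA2, all short of the threshold.

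XRCC2, XRCC3, RAD51C and RAD51D, related proteins that form complexes acting before strand invasion, fell together in U266. All 4 genes of this family that could be tested did so, and in ARP1 XRCC2 rose while RAD51D fell. XRCC2 (ENSG00000196584.2, chr7:152644779-152676165, minus strand) was at 2.17 and 2.15 FPKM with DMSO and 0.654 and 0.227 with I3MO in U266, a ratio of means of 0.204 and a change of -1.15 ± 0.17 (SE, limma adjusted p = 0.000252). In ARP1 the same gene was at 3.28 and 4.74 FPKM with DMSO and 10.1 and 7.47 with I3MO, a change of 0.96 ± 0.17 (adjusted p = 0.00074). The U266 libraries with I3MO were the lowest of all 20 for XRCC2 and the ARP1 libraries with I3MO the highest. Its levels were in ANBL6 5.05 and 5.47 with DMSO and 5.396 and 4.74 with I3MO and in ANBL6BR 6.07 and 7.21 with DMSO and 6.51 and 7.03 with I3MO FPKM. In RPMI8226 XRCC2 was at 2.71 and 2.51 FPKM with DMSO and 2.13 and 2.31 with I3MO, and none of these 3 models passed the test. RAD51C (ENSG00000108384.13, chr17:58692573-58735611, plus strand), a member of both complexes, fell in U266 from 3.87 and 3.71 to 1.52 and 2.09 FPKM, by -0.78 ± 0.11 (adjusted p = 0.000206). RAD51C was in ANBL6 3.28 and 3.599 with DMSO and 3.76 and 4.304 with I3MO and in ANBL6BR 2.15 and 2.12 with DMSO and 1.52 and 1.81 with I3MO FPKM. It was in ARP1 2.201 and 2.83 with DMSO and 2.78 and 2.74 with I3MO and in RPMI8226 2.06 and 1.87 with DMSO and 1.97 and 1.75 with I3MO FPKM. Outside U266 its changes with I3MO were small and did not pass the test. XRCC3, the partner of RAD51C, fell in U266 from 1.57 and 1.67 to 0.868 and 0.594 FPKM, by -0.60 ± 0.11 (adjusted p = 0.00111). XRCC3 was in ANBL6 0.762 and 0.834 with DMSO and 0.841 and 0.932 with I3MO and in ANBL6BR 2.38 and 1.76 with DMSO and 1.49 and 1.84 with I3MO FPKM. The same gene was in ARP1 0.666 and 0.736 with DMSO and 0.79 and 0.906 with I3MO and in RPMI8226 0.935 and 0.781 with DMSO and 1.099 and 1.06 with I3MO FPKM. The smallest change among these 4 genes in U266 was that of RAD51D, which links RAD51C to XRCC2. RAD51D changed by -0.32 ± 0.09 (adjusted p = 0.0236) in U266 and by -0.28 ± 0.09 (adjusted p = 0.0369) in ARP1, where it was at 2.65 and 2.05 FPKM with DMSO and 1.84 and 1.67 with I3MO. The RAD51D call in U266 was lost without any 1 of the 4 libraries of the model (adjusted p = 0.0567 to 0.140), and in ARP1 without DMSO replicate 1, I3MO replicate 1 or I3MO replicate 2 (0.334, 0.0773 and 0.17), its change being -0.15 without DMSO replicate 1. With the transcript-length trend removed RAD51D was at -0.28 (adjusted p = 0.118) in U266 and -0.62 (adjusted p = 0.00114) in ARP1, and with median-ratio scaling at -0.44 (adjusted p = 0.00347) in ARP1. RAD51B, not tested, ranged from 0.0904 to 0.308 FPKM over the 20 libraries.

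Of the factors of strand invasion and exchange, RAD51AP1 and RAD54L fell in U266 and RAD51AP1 also in ANBL6BR. RAD51AP1 (ENSG00000111247.13, chr12:4538798-4560048, plus strand), which stimulates the formation of joint molecules, was at 1.52 and 1.83 FPKM with DMSO and 0.64 and 0.837 with I3MO in ANBL6BR, a change of -0.62 ± 0.12 (SE, limma adjusted p = 0.00411). It was at 0.402 and 0.471 FPKM with DMSO and 0.155 and 0.0913 with I3MO in U266, a change of -0.36 ± 0.12 (adjusted p = 0.04997). The U266 call lay at the threshold, and it was lost without any 1 of the 4 libraries of that model (adjusted p = 0.0798 to 0.201) and with median-ratio scaling (0.0564). RAD54L (ENSG00000085999.10, chr1:46247688-46278473, plus strand), the motor protein that drives strand exchange, fell in U266 from 1.25 and 1.23 to 0.621 and 0.511 FPKM, by -0.52 ± 0.10 (adjusted p = 0.00165). RAD54L was in ANBL6 3.95 and 3.86 with DMSO and 4.47 and 4.19 with I3MO and in ANBL6BR 1.71 and 2.01 with DMSO and 1.53 and 1.53 with I3MO FPKM. It was in ARP1 1.53 and 1.12 with DMSO and 1.01 and 1.25 with I3MO and in RPMI8226 2.97 and 3.42 with DMSO and 3.19 and 2.86 with I3MO FPKM. Both promoters printed above for these genes hold the E2F letters, at -21 in RAD51AP1 and -49 in RAD54L from the RefSeq start, which for RAD51AP1 is inside the gene span given here. RAD54B, a relative of RAD54L, and RAD52, which anneals single strands, were too low to test, with 0.0315 to 0.719 and 0.15 to 0.574 FPKM.

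MRE11, RAD50 and NBN, the 3 subunits of the complex that detects and trims broken ends, rose in ARP1 with their cofactor RBBP8, and EXO1, the exonuclease of long-range resection, fell in U266, ANBL6BR and RPMI8226. EXO1 (ENSG00000174371.15, chr1:241847967-241895148, plus strand) was at 3.33 and 3.701 FPKM with DMSO and 0.701 and 0.638 with I3MO in U266, a ratio of means of 0.19 and a change of -1.43 ± 0.11 (SE, limma adjusted p = 1.15e-06). In ANBL6BR it was at 3.45 and 3.69 FPKM with DMSO and 1.78 and 2.28 with I3MO, a change of -0.60 ± 0.11 (adjusted p = 0.0021). In RPMI8226 it was at 2.697 and 2.498 FPKM with DMSO and 1.88 and 1.79 with I3MO, a change of -0.34 ± 0.11 (adjusted p = 0.0466). The I3MO libraries lay below the DMSO libraries in these 3 models, and the U266 change was the largest fall of any tested gene of the list in any model. EXO1 was in ANBL6 4.99 and 6.11 with DMSO and 5.401 and 5.35 with I3MO and in ARP1 2.41 and 2.96 with DMSO and 2.98 and 2.64 with I3MO FPKM. In those models its libraries with and without I3MO overlapped. MRE11 (ENSG00000020922.11, chr11:94415578-94493908, minus strand), the nuclease of the complex, was at 0.883 and 2.04 FPKM with DMSO and 3.02 and 2.15 with I3MO in ARP1, a change of 0.57 ± 0.18 (adjusted p = 0.0263). RAD50, its ATP-driven clamp, was at 0.79 and 1.37 FPKM with DMSO and 3.65 and 2.299 with I3MO there, a change of 0.93 ± 0.23 (adjusted p = 0.00687). NBN, which recruits ATM, was at 1.11 and 1.58 FPKM with DMSO and 3.26 and 2.49 with I3MO, a change of 0.73 ± 0.13 (adjusted p = 0.000935). For the 3 subunits each I3MO library of ARP1 was above each DMSO library. MRE11 was in ANBL6 1.53 and 1.602 with DMSO and 1.51 and 1.36 with I3MO and in ANBL6BR 4.55 and 4.43 with DMSO and 3.301 and 3.22 with I3MO FPKM. It was in RPMI8226 0.432 and 0.587 with DMSO and 0.451 and 0.443 with I3MO and in U266 0.744 and 0.905 with DMSO and 0.563 and 0.251 with I3MO FPKM. No MRE11 change outside ARP1 passed the test. RAD50 was in ANBL6 4.03 and 4.38 with DMSO and 4.56 and 4.18 with I3MO and in ANBL6BR 7.87 and 6.64 with DMSO and 11.3 and 10.98 with I3MO FPKM. Its levels were in RPMI8226 0.721 and 0.597 with DMSO and 0.83 and 0.697 with I3MO and in U266 1.58 and 1.85 with DMSO and 3.58 and 1.57 with I3MO FPKM. RAD50 in ANBL6BR was above DMSO in both I3MO libraries without passing the test. NBN was in ANBL6 4.19 and 4.54 with DMSO and 3.83 and 3.495 with I3MO and in ANBL6BR 8.14 and 10.1 with DMSO and 6.87 and 6.59 with I3MO FPKM. The NBN values were in RPMI8226 0.975 and 1.05 with DMSO and 0.921 and 0.865 with I3MO and in U266 1.37 and 1.399 with DMSO and 1.68 and 1.22 with I3MO FPKM. NBN in ANBL6BR was below DMSO in both I3MO libraries, again short of the threshold.

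RBBP8 (ENSG00000101773.15), the cofactor that starts resection, rose in ARP1 from 0.542 and 0.895 to 1.81 and 1.25 FPKM, by 0.56 ± 0.15 (SE, limma adjusted p = 0.0128). RBBP8 was in ANBL6 3.26 and 3.36 with DMSO and 4.59 and 4.603 with I3MO and in ANBL6BR 10.2 and 8.12 with DMSO and 7.56 and 7.79 with I3MO FPKM. It was in RPMI8226 1.16 and 1.13 with DMSO and 1.26 and 1.22 with I3MO and in U266 2.19 and 2.496 with DMSO and 3.14 and 1.995 with I3MO FPKM. In ANBL6 both I3MO libraries were above both DMSO libraries without passing the test. WRN, the helicase and exonuclease that is mutated in Werner syndrome, rose in ARP1 from 0.45 and 0.739 to 2.12 and 1.297 FPKM, by 0.75 ± 0.16 (adjusted p = 0.00334), and in no other model. BLM, the helicase mutated in Bloom syndrome, ranged from 0.68 to 3.88 FPKM, with changes between -0.34 (ANBL6BR) and 0.39 (ARP1), none of which passed the test. In ARP1, MRE11, RAD50 and RBBP8 were lost without DMSO replicate 1 (adjusted p = 0.316, 0.0768 and 0.127) or I3MO replicate 1 (0.222, 0.086 and 0.138), the change of MRE11 running from 0.23 without DMSO replicate 1 to 0.92 without DMSO replicate 2. NBN and WRN passed in ARP1, and EXO1 in U266 and ANBL6BR, whichever library was left out, and the RPMI8226 call of EXO1 was lost without any 1 of the 4 libraries of that model (0.113 to 0.216). In ARP1 MRE11 changed by 0.41 (adjusted p = 0.0801) with median-ratio scaling and 0.28 (adjusted p = 0.109) with the transcript-length trend removed, and RAD50 by 0.60 (adjusted p = 0.00542) with that trend removed. NBN in ANBL6BR passed under both, at -0.40 (adjusted p = 0.0358) and -0.39 (adjusted p = 0.017), and RAD50 there with the trend removed, at 0.53 (adjusted p = 0.022).

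The kinases that report breaks rose in ARP1, while CHEK1, the kinase that acts on their signal at stalled forks, passed the test in 4 models, in 3 of which it fell. CHEK1 (ENSG00000149554.11, chr11:125625136-125676255, plus strand) was at 7.04 and 6.41 FPKM with DMSO and 3.21 and 3.45 with I3MO in ANBL6BR, a ratio of means of 0.495 and a change of -0.84 ± 0.07 (SE, limma adjusted p = 2.28e-05). In U266 it was at 0.993 and 0.992 FPKM with DMSO and 0.376 and 0.439 with I3MO, a change of -0.50 ± 0.07 (adjusted p = 0.000301). In RPMI8226 it was at 1.402 and 1.47 FPKM with DMSO and 1.08 and 1.004 with I3MO, a change of -0.25 ± 0.07 (adjusted p = 0.0373). In all 3 the groups did not overlap, and the ANBL6BR libraries with DMSO were the highest of the 20. In ARP1 CHEK1 was higher, at 2.41 and 2.79 FPKM with DMSO and 3.404 and 2.997 with I3MO, a change of 0.22 ± 0.07 (adjusted p = 0.0315), and in ANBL6 it was at 2.35 and 2.47 FPKM with DMSO and 2.15 and 2.19 with I3MO, a change of -0.10 ± 0.07 (adjusted p = 0.458). ATM (ENSG00000149311.16, chr11:108222484-108369102, plus strand), the kinase that answers double-strand breaks, was at 0.372 and 0.616 FPKM with DMSO and 2.84 and 1.75 with I3MO in ARP1, a change of 1.13 ± 0.18 (adjusted p = 0.000483). That was the largest rise among the tested genes of the list in any model. ATM was in ANBL6 1.73 and 1.79 with DMSO and 1.59 and 1.198 with I3MO and in ANBL6BR 2.76 and 2.95 with DMSO and 4.53 and 4.43 with I3MO FPKM. ATM values were in RPMI8226 0.45 and 0.387 with DMSO and 0.371 and 0.421 with I3MO and in U266 0.271 and 0.393 with DMSO and 0.832 and 0.204 with I3MO FPKM. In ANBL6BR both I3MO libraries were above both DMSO libraries without passing the test. ATR, the kinase that answers stalled forks, rose in ARP1 from 0.316 and 0.852 to 2.18 and 1.27 FPKM, by 0.78 ± 0.22 (adjusted p = 0.0144), and in ANBL6BR from 3.03 and 2.82 to 5.45 and 5.15 FPKM, by 0.68 ± 0.22 (adjusted p = 0.0491). CHEK2, the kinase downstream of ATM, fell in ARP1 from 0.847 and 0.812 to 0.52 and 0.451 FPKM, by -0.30 ± 0.11 (adjusted p = 0.0484). ATM in ARP1 and CHEK1 in ANBL6BR and U266 passed whichever library was left out. CHEK1 and ATR in ARP1 were lost without DMSO replicate 1 (adjusted p = 0.242 and 0.152) or I3MO replicate 1 (0.252 and 0.154), the change of CHEK1 being 0.15 without the former, and CHEK2 in ARP1 (0.112 to 0.177), CHEK1 in RPMI8226 (0.107 to 0.192) and ATR in ANBL6BR (0.0969 to 0.184) were lost without any 1 of the model's 4 libraries. The ARP1 change of CHEK1 was 0.04 (adjusted p = 0.766) with median-ratio scaling and 0.02 (adjusted p = 0.853) with the transcript-length trend removed, so its rise there rested on the processing. With that trend removed CHEK1 was at -0.23 (adjusted p = 0.0647) in RPMI8226, ATR at 0.46 (adjusted p = 0.0171) in ARP1, CHEK2 at -0.30 (adjusted p = 0.0305) in U266 and ATM at 0.43 (adjusted p = 0.00318) in ANBL6BR.

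In the Fanconi core complex FANCA, FANCC and FANCG fell in U266, FANCA, FANCE and FANCL in ANBL6BR, and FANCA and FANCE in ARP1, while FANCF rose in ANBL6BR. FANCA (ENSG00000187741.13, chr16:89737549-89816657, minus strand), a scaffold subunit, was at 2.102 and 2.01 FPKM with DMSO and 1.09 and 0.803 with I3MO in U266, a change of -0.65 ± 0.10 (SE, limma adjusted p = 0.000312). In ANBL6BR it was at 2.88 and 3.19 FPKM with DMSO and 1.98 and 2.19 with I3MO, a change of -0.39 ± 0.10 (adjusted p = 0.0149). In ARP1 it was at 2.01 and 1.62 FPKM with DMSO and 1.42 and 1.25 with I3MO, a change of -0.26 ± 0.10 (adjusted p = 0.0489). The I3MO libraries lay below the DMSO libraries in these 3 models. FANCA was in ANBL6 1.78 and 2.1 with DMSO and 1.53 and 1.27 with I3MO and in RPMI8226 1.08 and 1.09 with DMSO and 0.851 and 0.881 with I3MO FPKM. There too both I3MO libraries were below both DMSO libraries, without passing the test. FANCG (ENSG00000221829.8, chr9:35073835-35080016, minus strand), which binds FANCA directly, fell in U266 from 8.71 and 7.36 to 4.09 and 3.12 FPKM, by -0.98 ± 0.11 (adjusted p = 5.17e-05). FANCG was in ANBL6 4.31 and 4.401 with DMSO and 5.42 and 4.602 with I3MO and in ANBL6BR 7.603 and 8.64 with DMSO and 6.95 and 8.099 with I3MO FPKM. It was in ARP1 7.99 and 7.61 with DMSO and 5.99 and 6.58 with I3MO and in RPMI8226 6.45 and 6.33 with DMSO and 8.13 and 8.55 with I3MO FPKM. In RPMI8226 its 2 I3MO libraries were above the DMSO libraries, which did not pass the test. FANCC, which sits with FANCE and FANCF in a subcomplex, fell in U266 from 1.96 and 2.05 to 1.18 and 1.52 FPKM, by -0.36 ± 0.09 (adjusted p = 0.0111). FANCC was in ANBL6 0.936 and 0.88 with DMSO and 0.851 and 0.788 with I3MO and in ANBL6BR 2.03 and 1.66 with DMSO and 1.34 and 1.42 with I3MO FPKM. It was in ARP1 1.56 and 1.26 with DMSO and 1.19 and 1.197 with I3MO and in RPMI8226 0.456 and 0.612 with DMSO and 0.731 and 0.751 with I3MO FPKM. FANCE, the subunit that contacts FANCD2, fell in ANBL6BR and ARP1, in neither of which FANCC passed the test. FANCE (ENSG00000112039.3, chr6:35452356-35467103, plus strand) was at 14.8 and 15.1 FPKM with DMSO and 10.6 and 10.2 with I3MO in ANBL6BR, a change of -0.48 ± 0.07 (adjusted p = 0.000794), and at 11.4 and 10.98 with DMSO and 8.89 and 8.97 with I3MO in ARP1, a change of -0.30 ± 0.07 (adjusted p = 0.00664). FANCE was in ANBL6 9.096 and 9.83 with DMSO and 8.804 and 7.79 with I3MO and in RPMI8226 9.84 and 9.29 with DMSO and 7.97 and 8.34 with I3MO FPKM. In U266 it was at 15.3 and 14.2 FPKM with DMSO and 13.3 and 12.3 with I3MO. FANCF (ENSG00000183161.4, chr11:22622890-22625841, minus strand), an adaptor of the core, was at 7.12 and 5.52 FPKM with DMSO and 12.5 and 12.2 with I3MO in ANBL6BR, a ratio of means of 1.96 and a change of 0.88 ± 0.14 (adjusted p = 0.000967). FANCF was in ANBL6 1.55 and 2.18 with DMSO and 2.51 and 3.06 with I3MO and in ARP1 14.9 and 12.1 with DMSO and 10.9 and 11.8 with I3MO FPKM. It was in RPMI8226 5.24 and 5.28 with DMSO and 4.96 and 5.08 with I3MO and in U266 8.102 and 7.598 with DMSO and 6.44 and 7.91 with I3MO FPKM. FANCF rose in no other model, and in ANBL6 both of its I3MO libraries lay above the DMSO libraries without passing the test. FANCA was lost in ANBL6BR without DMSO replicate 2 or I3MO replicate 1 (adjusted p = 0.0841 and 0.105) and in ARP1 without DMSO replicate 1, I3MO replicate 1 or I3MO replicate 2 (0.332, 0.0834 and 0.222), where its change was -0.17 without DMSO replicate 1, and FANCC was lost in U266 without DMSO replicate 2 or I3MO replicate 1 (0.0704 and 0.0829). In ARP1 median-ratio scaling gave larger falls, -0.52 (adjusted p = 0.000221) for FANCE and -0.41 (adjusted p = 0.00366) for FANCA, and called FANCG at -0.49 (adjusted p = 0.00303) and FANCF at -0.46 (adjusted p = 0.0332). With the transcript-length trend removed FANCA was at -0.52 (adjusted p = 0.000247), FANCC at -0.36 (adjusted p = 0.00871) and FANCG at -0.34 (adjusted p = 0.0243) in ARP1, and FANCG with median-ratio scaling at 0.38 (adjusted p = 0.0275) in RPMI8226.

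The ubiquitin step of the pathway moved in opposite directions between models. UBE2T (ENSG00000077152.8, chr1:202331657-202341980, minus strand), the conjugating enzyme, was at 19.95 and 21.3 FPKM with DMSO and 8.78 and 12 with I3MO in U266, a ratio of means of 0.504 and a change of -0.94 ± 0.11 (SE, limma adjusted p = 5.87e-05). In ANBL6BR it was at 17.5 and 19.4 FPKM with DMSO and 12.7 and 13.4 with I3MO, a change of -0.47 ± 0.11 (adjusted p = 0.0111). In ANBL6 it was at 23.5 and 21.7 FPKM with DMSO and 34.3 and 36.8 with I3MO, a change of 0.63 ± 0.11 (adjusted p = 0.00553). The groups did not overlap in any of these 3 models, and UBE2T was the one gene of the list to pass the test in ANBL6. The ANBL6 I3MO libraries held more genes above 0 FPKM (32668 and 28419) than the DMSO ones (22138 and 22710), and the part of this was not tested. UBE2T was in ARP1 35.9 and 37.3 with DMSO and 29.3 and 32.2 with I3MO and in RPMI8226 33.3 and 34.7 with DMSO and 30 and 28.9 with I3MO FPKM. Both I3MO libraries were below both DMSO libraries in those models, without passing the test, although UBE2T in ARP1 did so with median-ratio scaling, at -0.49 (adjusted p = 0.0166). FANCL (ENSG00000115392.10, chr2:58159243-58241372, minus strand), the ligase that works with UBE2T, rose in ARP1 from 0.75 and 1.02 to 1.56 and 1.49 FPKM, by 0.42 ± 0.10 (adjusted p = 0.00704), and fell in ANBL6BR from 2.17 and 2.205 to 1.46 and 1.47 FPKM, by -0.37 ± 0.10 (adjusted p = 0.0273). FANCL was in ANBL6 1.82 and 1.81 with DMSO and 2.47 and 2.17 with I3MO and in RPMI8226 0.825 and 0.844 with DMSO and 0.729 and 0.491 with I3MO FPKM. In U266 it was at 0.902 and 0.922 FPKM with DMSO and 0.794 and 0.447 with I3MO. None of those 3 changes passed the test. FANCM, the translocase that brings the core to a crosslink, rose in ARP1 from 0.185 and 0.328 to 0.566 and 0.494 FPKM, by 0.29 ± 0.10 (adjusted p = 0.0405). FANCM was in ANBL6 0.592 and 0.587 with DMSO and 0.691 and 0.494 with I3MO and in ANBL6BR 0.868 and 1.17 with DMSO and 1.06 and 1.01 with I3MO FPKM. FANCM values were in RPMI8226 0.103 and 0.0948 with DMSO and 0.0966 and 0.117 with I3MO and in U266 0.156 and 0.234 with DMSO and 0.263 and 0.0846 with I3MO FPKM. FANCB, a partner of FANCL, was not tested and ranged from 0.0801 to 0.973 FPKM. The UBE2T call was lost in ANBL6 without DMSO replicate 2 or I3MO replicate 2 (adjusted p = 0.0617 and 0.0571) or with the transcript-length trend removed (0.0671), and in ANBL6BR without DMSO replicate 2 or I3MO replicate 1 (0.0675 and 0.0733). FANCL was lost in ARP1 without DMSO replicate 1 or I3MO replicate 1 (0.0798 and 0.0502) and in ANBL6BR without any 1 of its libraries (0.0635 to 0.116), and FANCM in ARP1 without DMSO replicate 1, I3MO replicate 1 or I3MO replicate 2 (0.257, 0.184 and 0.0765), its change being -0.01 with the transcript-length trend removed and 0.21 (adjusted p = 0.101) with median-ratio scaling.

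FANCD2 and FANCI, the pair that the core complex marks with ubiquitin, both fell in U266, and FANCD2 rose in ARP1. FANCD2 (ENSG00000144554.9, chr3:10026414-10101930, plus strand) was at 1.38 and 1.64 FPKM with DMSO and 0.674 and 0.314 with I3MO in U266, a ratio of means of 0.327 and a change of -0.76 ± 0.13 (SE, limma adjusted p = 0.00103). In ARP1 it was at 1.02 and 1.504 FPKM with DMSO and 2.69 and 2.198 with I3MO, a change of 0.61 ± 0.13 (adjusted p = 0.00335). The 2 groups did not overlap in either model, and both calls stood whichever library was left out, the ARP1 change being 0.37 (adjusted p = 0.00885) with the transcript-length trend removed. FANCD2 was in ANBL6 4.81 and 4.66 with DMSO and 4.17 and 3.58 with I3MO and in ANBL6BR 3.61 and 3.82 with DMSO and 3.12 and 3.62 with I3MO FPKM. In RPMI8226 it was at 0.962 and 0.752 FPKM with DMSO and 0.633 and 0.597 with I3MO. FANCI (ENSG00000140525.16, chr15:89243949-89317261, plus strand) fell in U266 from 3.31 and 3.797 to 1.58 and 0.711 FPKM, by -1.12 ± 0.20 (adjusted p = 0.00113). Its changes of -0.49 (adjusted p = 0.158) in ANBL6, -0.49 (adjusted p = 0.117) in ANBL6BR, -0.50 (adjusted p = 0.124) in RPMI8226 and 0.45 (adjusted p = 0.0954) in ARP1 did not pass the test. MSH6, which takes part in the recognition of mismatched bases, fell in U266 from 3.65 and 4.06 to 1.76 and 1.402 FPKM, by -0.91 ± 0.12 (adjusted p = 9.41e-05), and in ANBL6BR from 3.16 and 3.86 to 1.85 and 1.996 FPKM, by -0.62 ± 0.12 (adjusted p = 0.0029). Its I3MO libraries were below its DMSO libraries in both models, and both calls stood whichever library was left out.

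**Figure D2:**
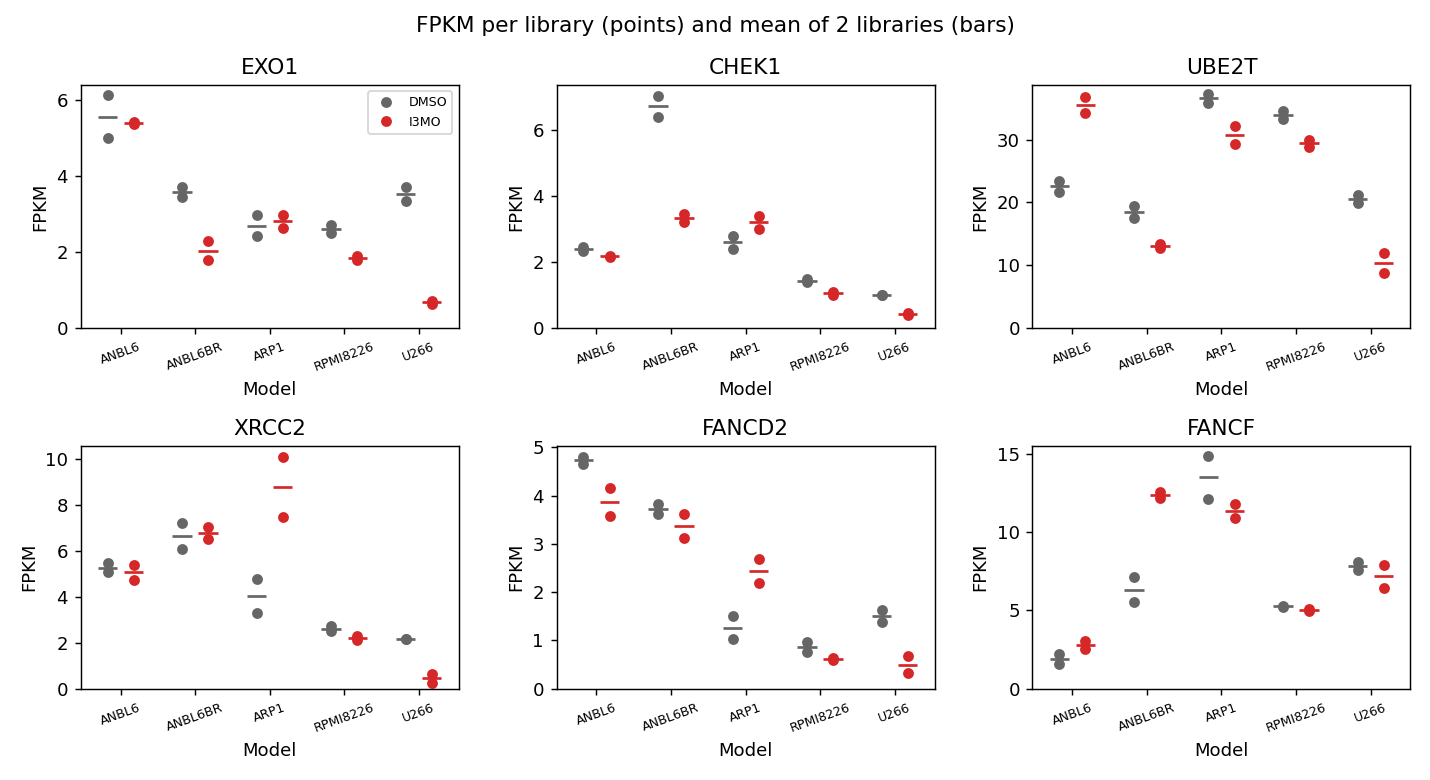
FPKM of EXO1, CHEK1, UBE2T, XRCC2, FANCD2 and FANCF (panels) in each of the 20 libraries (points, grey for DMSO and red for I3MO) by model, with bars at the mean of 2 libraries. EXO1 falls from 3.33 and 3.70 to 0.701 and 0.638 FPKM in U266, XRCC2 is higher with I3MO in ARP1 and lower in U266, and FANCF is higher with I3MO in ANBL6BR.

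Transcript length moved with part of these results. Among the other tested coding genes the median change in ARP1 was -0.05, 0.01, 0.12 and 0.22 for longest coding transcripts under 2, of 2 to 4, of 4 to 6 and of 6 kb or more. The repair genes that rose there numbered 1 of 3, 2 of 10, 6 of 10 and 7 of 10 in the same classes. The share of all genes that rose in each class was not counted. In ANBL6 the medians ran the other way, from 0.14 in the shortest to -0.13 in the longest class, and in U266 they were between -0.01 and -0.03 in every class. Over the 33 repair genes the rank correlation of change with length was 0.43 in ARP1, -0.57 in ANBL6 and 0.34 in U266, beside 0.25, -0.45 and -0.03 over 10750 other coding genes, given as a description because genes of 1 library share its depth and composition. Length also separated libraries of 1 group: in genes of 6 kb or more, replicate 2 was lower than replicate 1 by a median of -0.15 in ARP1 I3MO, -0.15 in U266 I3MO and -0.15 in ANBL6 I3MO. In ARP1 DMSO, replicate 2 was above replicate 1 for 25 of the 33 repair genes, with a median difference of 0.24, and in U266 I3MO for 7 of them, with a median of -0.25. With the trend of change on length removed, an alternative chosen after seeing the data, 17 genes fell in U266, 16 of them shared with the first fit (RAD51D was lost and CHEK2 gained). In ARP1 10 were then higher and 6 lower, beside 2533 higher and 3265 lower over all genes tested in that fit. The part of length in the ARP1 result beyond that fit was not tested.

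**Figure D3:**
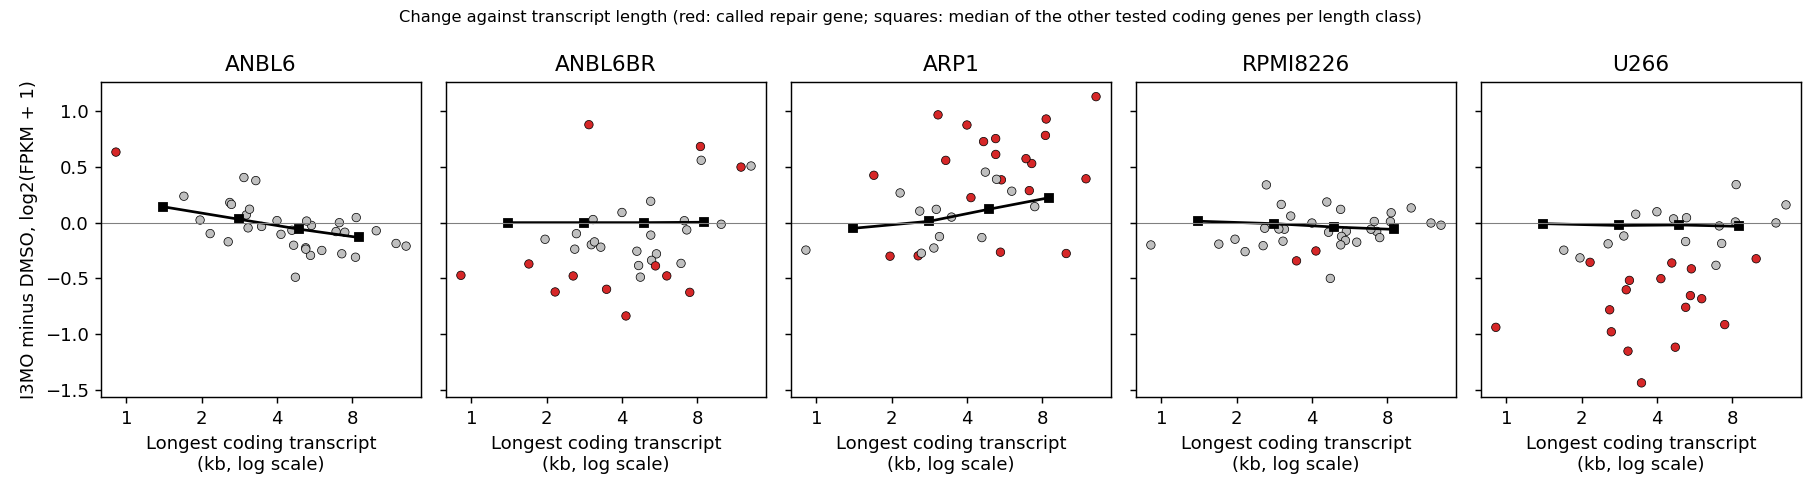
Change with I3MO (difference of mean log2(FPKM + 1), vertical) of the 33 tested repair genes against the length of their longest coding transcript (kb, log scale) in each of the 5 models, red where the gene passed the test, with squares joined by a line at the median of the other coding genes per length class. In ARP1 the squares climb from -0.05 to 0.22, and in U266 they stay between -0.01 and -0.03 while the repair genes that passed the test, 17 in number, lie below them.

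The bortezomib-resistant form was compared with its parent in DMSO, the question being how repair genes stand in the resistant line without treatment. Of all tested genes 51.8% differed, 27% being higher and 24.8% lower in ANBL6BR, and of the 33 repair genes 13 were higher and 3 lower. With median-ratio scaling 12 were higher and 9 lower, beside 3718 higher and 4154 lower over all genes. With the transcript-length trend removed 16 were higher and 9 lower, beside 3524 and 3522 over the genes then tested. More genes of the list were higher than lower in each of these fits, but the balance moved with the scaling. None of the 16 genes of the first fit changed sign. The higher genes included the whole end-trimming complex with RBBP8, CHEK1, and 6 of the 7 tested Fanconi core genes other than UBE2T, FANCL being the exception. UBE2T did not pass in the first fit, and with median-ratio scaling it was lower in ANBL6BR, at -0.37 (limma adjusted p = 0.0469). FANCF was at 1.55 and 2.18 FPKM in ANBL6 and 7.12 and 5.52 in ANBL6BR, a difference of 1.35 ± 0.14 (SE, limma adjusted p = 3.04e-06). RBBP8 was at 3.26 and 3.36 FPKM in ANBL6 and 10.2 and 8.12 in ANBL6BR, a difference of 1.23 ± 0.15 (adjusted p = 1.94e-05). CHEK1 was at 2.35 and 2.47 FPKM in ANBL6 and 7.04 and 6.41 in ANBL6BR, a difference of 1.18 ± 0.07 (adjusted p = 2.97e-08). For each of these 3 genes both ANBL6BR libraries were above both ANBL6 libraries. MRE11 was at 1.53 and 1.602 FPKM in ANBL6 and 4.55 and 4.43 in ANBL6BR, a difference of 1.10 ± 0.18 (adjusted p = 0.000225). NBN was at 4.19 and 4.54 FPKM in ANBL6 and 8.14 and 10.1 in ANBL6BR, a difference of 0.91 ± 0.13 (adjusted p = 5.78e-05). RAD50 was at 4.03 and 4.38 FPKM in ANBL6 and 7.87 and 6.64 in ANBL6BR, a difference of 0.66 ± 0.23 (adjusted p = 0.027). All 3 subunits of the trimming complex thus stood higher in the resistant line. The levels of FANCG were 4.31 and 4.401 FPKM in ANBL6 and 7.603 and 8.64 in ANBL6BR, a difference of 0.77 ± 0.11 (adjusted p = 9.46e-05). Those of FANCE were 9.096 and 9.83 FPKM in ANBL6 and 14.8 and 15.1 in ANBL6BR, a difference of 0.61 ± 0.07 (adjusted p = 1.32e-05). Those of FANCC were 0.936 and 0.88 FPKM in ANBL6 and 2.03 and 1.66 in ANBL6BR, a difference of 0.58 ± 0.09 (adjusted p = 0.000158). FANCA and FANCM, the other Fanconi genes that passed, differed by less. FANCA was at 1.78 and 2.1 FPKM in ANBL6 and 2.88 and 3.19 in ANBL6BR, a difference of 0.46 ± 0.10 (adjusted p = 0.00145), and FANCM at 0.592 and 0.587 FPKM in ANBL6 and 0.868 and 1.17 in ANBL6BR, a difference of 0.34 ± 0.10 (adjusted p = 0.0123). XRCC3 was at 0.762 and 0.834 FPKM in ANBL6 and 2.38 and 1.76 in ANBL6BR, a difference of 0.76 ± 0.11 (adjusted p = 5.05e-05), and ATM at 1.73 and 1.79 FPKM in ANBL6 and 2.76 and 2.95 in ANBL6BR, a difference of 0.48 ± 0.18 (adjusted p = 0.0409). The 3 lower genes act in strand exchange or extend resection. RAD54L was at 3.95 and 3.86 FPKM in ANBL6 and 1.71 and 2.01 in ANBL6BR, a difference of -0.78 ± 0.10 (adjusted p = 1.86e-05). EXO1 was at 4.99 and 6.11 FPKM in ANBL6 and 3.45 and 3.69 in ANBL6BR, a difference of -0.52 ± 0.11 (adjusted p = 0.0011). RAD51C was at 3.28 and 3.599 FPKM in ANBL6 and 2.15 and 2.12 in ANBL6BR, a difference of -0.50 ± 0.11 (adjusted p = 0.00183). Both libraries of 1 line lay outside the range of the other for all 16 genes. These genes were picked by the test on the same libraries, so this adds no support. The calls of RAD50, ATM and FANCM were lost when 1 library was left out (adjusted p = 0.0692 to 0.137 without ANBL6 DMSO replicate 1, ANBL6 DMSO replicate 2 or ANBL6BR DMSO replicate 1 for RAD50, 0.0871 to 0.140 without any 1 of the 4 for ATM, and 0.0503 to 0.120 without ANBL6 DMSO replicate 1, ANBL6 DMSO replicate 2 or ANBL6BR DMSO replicate 2 for FANCM), and that of ATM also with median-ratio scaling (0.0634). The lines also differed in genes of other cell types, in both directions: EPCAM, KRT18, KRT19 and CDH1, an epithelial list, summed to 28.9 to 30.1 FPKM in ANBL6 and 0.02002 to 0.03696 in ANBL6BR, with KRT19 and CDH1 under 1 FPKM throughout, while the red cell list (HBB, HBA1 and ALAS2, of which only HBB reached 1 FPKM) summed to 0.286 FPKM in both ANBL6 libraries and 4.37 to 5.99 in ANBL6BR. The 8 plasma cell markers summed to 300 and 324 FPKM in the ANBL6 libraries and to 224 and 580 in the ANBL6BR libraries, so the 2 ANBL6BR libraries were far apart. Of these 8 markers 4 passed as higher and 2 as lower in ANBL6BR. The part of these movements in the differences was not tested.

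**Figure D4:**
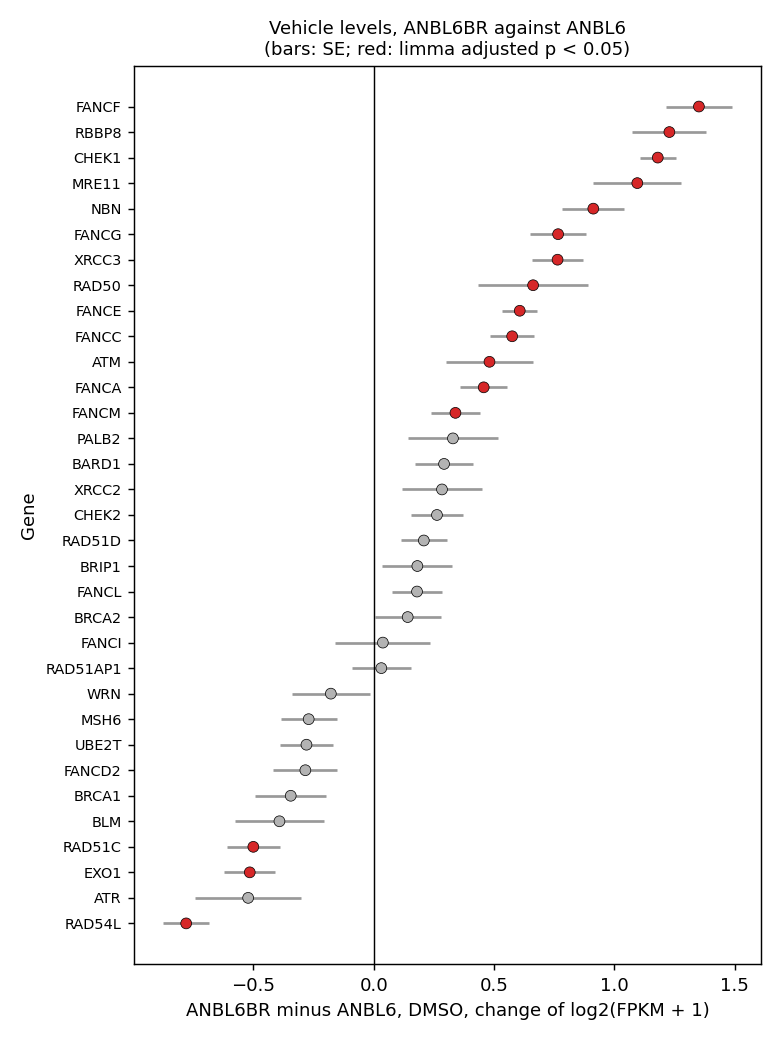
Difference of ANBL6BR and ANBL6 with DMSO (mean log2(FPKM + 1), points, with bars for the SE) for the 33 tested repair genes, sorted from high to low and red where limma's adjusted p was below 0.05. FANCF at 1.35, RBBP8 at 1.23 and CHEK1 at 1.18 lead the 13 higher genes, and RAD54L at -0.78 is the lowest of the 3 lower ones.

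ANBL6 and ANBL6BR had the same labelled dose, so their responses to I3MO were compared without that difference. The ANBL6 I3MO libraries stood apart, with 32668 and 28419 genes above 0 FPKM. ANBL6 DMSO had 22138 and 22710, ANBL6BR DMSO 20975 and 21349, and ANBL6BR I3MO 21316 and 22110. With no filter on low values 3378 of all genes rose in ANBL6, in place of 643. The part of this in the differences of responses was not tested. The response differed for 5 of the 33 tested genes, against 8.47% of all tested genes: 4 were more negative in ANBL6BR, against 4.33% of all tested genes, and 1 more positive, against 4.14%. UBE2T rose in ANBL6 and fell in ANBL6BR, a difference of responses of -1.10 ± 0.16 (SE, limma adjusted p = 0.00193). CHEK1 changed by -0.10 in ANBL6 and -0.84 in ANBL6BR, a difference of -0.73 ± 0.10 (adjusted p = 0.00193). EXO1 changed by -0.03 and -0.60, a difference of -0.56 ± 0.15 (adjusted p = 0.0371). With DMSO, CHEK1 was the higher in the resistant line and EXO1 the lower, yet both responses were more negative there. FANCL changed by 0.24 and -0.37, a difference of -0.61 ± 0.15 (adjusted p = 0.0269). BRCA2 changed by -0.19 and 0.50, a difference of 0.68 ± 0.19 (adjusted p = 0.0484). The differences of UBE2T and CHEK1 passed whichever library was left out, and that of EXO1 was lost without ANBL6 DMSO replicate 1, either ANBL6 I3MO replicate, ANBL6BR DMSO replicate 2 or ANBL6BR I3MO replicate 1 (adjusted p = 0.0713 to 0.146). FANCL was lost without any 1 of 6 of the 8 libraries, the exceptions being the ANBL6BR DMSO replicates (0.0504 to 0.0799), and BRCA2 without any but ANBL6 I3MO replicate 1 (0.0625 to 0.176). The number that differed was 2 or 3 without any 1 of the 8 libraries other than ANBL6BR DMSO replicate 1. Transcript length moved with this comparison too, the median of the other coding genes running from -0.16 under 2 kb to 0.17 at 6 kb or more, and with that trend removed 7 genes differed, 3 of them more positive, while with median-ratio scaling 4 differed, all more negative. FANCL did not pass with the trend removed (0.0561), and BRCA2 was at 0.41 (adjusted p = 0.0151) with it removed and 0.64 (adjusted p = 0.0527) with that scaling.

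A response shared by the models was tested on the 5 model means with model as a block. ANBL6BR is a form of ANBL6, so these are not 5 independent units, and the test takes no account of that. None of the 33 genes passed, nor did any of the 15687 genes (0%), and the smallest adjusted p of limma over all genes was 0.0919. At an unadjusted p under 0.05 there were 3 genes of the list and 2651 genes in all. The mean change over models was -0.47 ± 0.21 (SE, limma adjusted p = 0.322) for EXO1, -0.43 ± 0.20 (adjusted p = 0.343) for FANCI, -0.35 ± 0.10 (adjusted p = 0.17) for FANCA and 0.39 ± 0.15 (adjusted p = 0.247) for RAD50. The joint test of equal responses was passed by 24 of the 33 genes, against 44.5% of all tested genes, so for these genes the models differed in their response. Its smallest adjusted p values were 0.000107 for EXO1, 0.000148 for CHEK1, 0.000221 for UBE2T and 0.000487 for XRCC2. FANCE (0.105), RAD50 (0.148), BLM (0.22) and CHEK2 (0.317) were among those that did not pass. Leaving out 1 library moved the number of genes with unequal responses to between 15 (without ARP1 I3MO replicate 1) and 28, and the labelled dose separates both ANBL6 lines from the other 3 models, so dose and model cannot be told apart between these 2 sets.

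Related genes outside the list were read in the same fit. Of 34 other tested genes that serve the same pathways, 10 fell and 1 rose in U266 (15.8% and 10.5% of all tested genes did so), 5 fell and 2 rose in ANBL6BR (8.4% and 10%), 5 fell and 10 rose in ARP1 (13.9% and 23.1%), 2 fell and 3 rose in RPMI8226 (8.62% and 6.19%) and 1 fell and 1 rose in ANBL6 (3.87% and 4.1%). RMI2, a partner of BLM, changed by -1.63 (adjusted p = 3.05e-06) in U266 and -1.23 (adjusted p = 3.4e-05) in ARP1, RFWD3, a ubiquitin ligase of crosslink repair, by -1.13 (adjusted p = 0.000119) and -0.55 (adjusted p = 0.0112), and SWI5, a cofactor of recombination, by 0.33 (adjusted p = 0.0172) and 0.06 (adjusted p = 0.686). Among 17 checkpoint and break signalling genes 9 fell in U266, 7 in ANBL6BR, 5 in ARP1, where 5 rose, 1 in RPMI8226, where 2 rose, and 2 in ANBL6. TIMELESS, of the fork protection complex, changed by -0.50 (adjusted p = 0.00241) in U266, WEE1, the kinase that holds back CDK1, by -0.95 (adjusted p = 4.17e-05), and the histone gene H2AX by -1.09 (adjusted p = 0.000101). End joining, the alternative way to close a break, had 4 of 9 genes lower in U266, 2 lower in ANBL6BR, 4 higher and 2 lower in ARP1 and 0 called in RPMI8226 and ANBL6. XRCC6, the smaller Ku subunit, changed by -0.22 (adjusted p = 0.397) in U266 and -0.71 (adjusted p = 0.00558) in ARP1, the ligase gene LIG4 by 0.24 (adjusted p = 0.331) and 0.81 (adjusted p = 0.0022), and PAXX, which binds Ku, by -0.33 (adjusted p = 0.0234) and -0.47 (adjusted p = 0.00223). Genes of S phase and mitosis fell in U266 as the list did, while in ARP1 replication genes went the other way from most called genes of the list. Of 15 replication helicase and origin genes, 15 fell in U266 (median -1.54), 14 in ANBL6BR (median -1.10), 11 in ARP1 (median -0.79), 5 in RPMI8226 and 2 in ANBL6, where 1 rose. MCM2 changed by -1.42 (adjusted p = 8.27e-08) in U266 and -1.39 (adjusted p = 2.43e-07) in ARP1, MCM5 by -1.80 (adjusted p = 9.69e-09) and -1.47 (adjusted p = 1.54e-07), and MCM7 by -1.70 (adjusted p = 1.53e-07) and -1.37 (adjusted p = 1.57e-06), all subunits of the replicative helicase. Of 13 mitosis genes 12 fell in U266, 5 in RPMI8226, 2 in ANBL6BR and 1 in ANBL6, and in ARP1 4 fell and 4 rose. The cyclin genes CCNB1 and CCNB2 changed by -1.06 (adjusted p = 1.61e-05) and -0.82 (adjusted p = 0.00014) in U266, and the mitotic kinase gene PLK1 by -1.06 (adjusted p = 5.37e-05). In ARP1, then, 11 replication genes fell while 16 repair genes rose, and the part of this movement of S phase genes in the results of the repair genes was not tested.

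**Figure D5:**
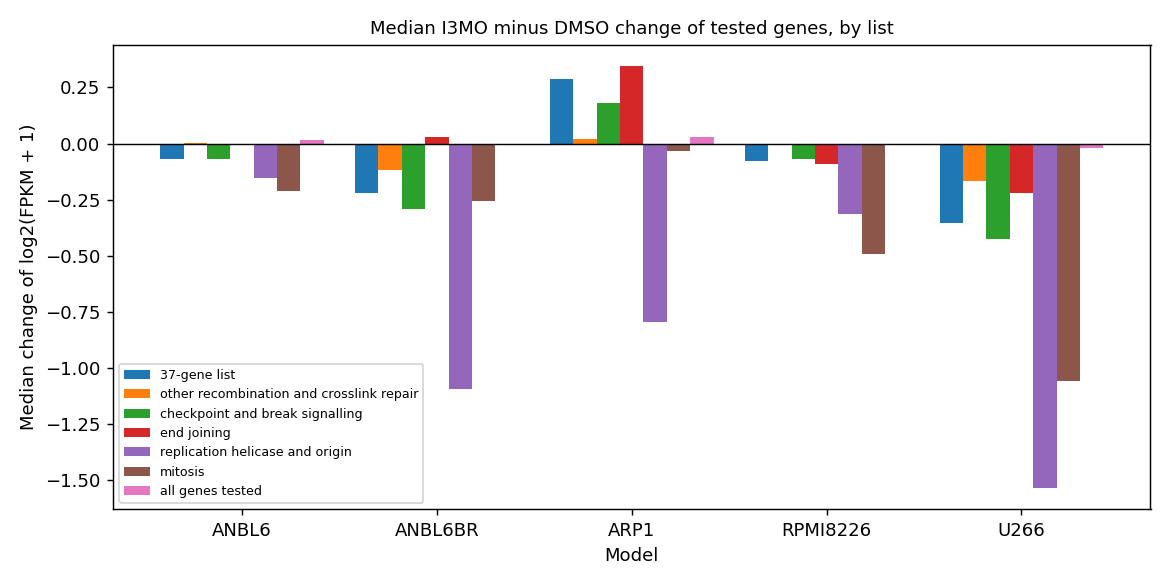
Median change with I3MO (difference of mean log2(FPKM + 1)) over the tested genes of each list, by model, bars from 0. The replication bar is the lowest in ANBL6BR (-1.10), ARP1 (-0.79) and U266 (-1.54), while the bar of the 37-gene list is at 0.29 in ARP1 and -0.36 in U266.

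Without I3MO the models differed in the level of these genes. The joint test of equal DMSO levels was passed by all 33 tested genes, against 90% of all tested genes. The highest mean was in ANBL6BR for 22 of the 37 genes, in ANBL6 for 9, in ARP1 for 4 and in U266 for 2, and the lowest was in RPMI8226 for 20. Of all tested genes 23.9% were highest in ANBL6BR, beside 59.5% of the 37, and 25% were lowest in RPMI8226, beside 54.1%. The counts moved with the scaling: with median-ratio size factors 18 of the 37 were highest in ANBL6BR (18.5% of all tested genes) and 13 lowest in RPMI8226 (17.1%). BRCA2 had a mean of 1.12 FPKM in ANBL6BR and 0.0779 in RPMI8226, with neighbouring models apart all along the order ANBL6BR, ANBL6, ARP1, U266, RPMI8226. RBBP8 ran from 9.16 in ANBL6BR to 0.718 in ARP1, and RAD50 from 7.25 in ANBL6BR to 0.659 in RPMI8226, again without overlap between neighbours. The order was another one for FANCF and UBE2T, which were highest in ARP1. FANCF ran from 13.5 in ARP1 to 1.87 in ANBL6, with U266, ANBL6BR and RPMI8226 between and every neighbouring pair apart. UBE2T ran from 36.6 in ARP1 to 18.5 in ANBL6BR, through RPMI8226, ANBL6 and U266, without overlap. FANCE differed least, from 14.9 in ANBL6BR to 9.46 in ANBL6, and its 2 highest models, ANBL6BR and U266, overlapped, as did its 2 lowest. CHEK1 was 6.73 in ANBL6BR and 0.992 in U266, the ARP1 and ANBL6 libraries between them overlapping.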

How the data were processed

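RNA-seq of 20 libraries (10 groups of 2) was read from a joint table of FPKM deposited by the authors, equal to 20 of 20 single tables. Per the submitters' processing notes, Trimmomatic (0.32 and 0.36), STAR and SAMtools were used with hg38; the counting tool, the annotation and the roles of these tools are not given in the sources used here. Gene names and positions came from GENCODE 29 (GRCh38) by gene ID without version, and 56753 of 60483 genes had a symbol. Whole fragments were recovered from the FPKM steps (within 0.05 for 100% of single-exon values), which gave library totals of 12.11 to 20.31 M fragments. Since FPKM are not counts, log2(FPKM + 1) was fitted with limma 3.58.1 (R 4.3.3): genes at 1 FPKM or more in at least 2 libraries, 1 mean per group over all 20 libraries, an intensity trend, two-sided tests, Benjamini-Hochberg adjustment over 15687 genes, and a threshold of 0.05. The shared response used 5 against 5 model means with model as a block. Errors of changes are SE. Where the libraries of 2 groups are said not to overlap for a gene that passed, the gene was picked by a test on the same libraries. Other genes are said to have both I3MO libraries above or below both DMSO libraries without passing the test. With 2 libraries a group such a separation can easily arise without a change. Both kinds of statement describe the values and add no support. The share of all tested genes without overlap was not counted.

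The members and all gene lists were chosen with earlier results of these data known. The scripts were tested on simulated data. Some related genes outside the list are not reported here and were left out of the counts over related genes. Library values are given for genes that passed the test in 1 direction in at least 3 models, in opposite directions in different models, between ANBL6BR and ANBL6 in DMSO, or in the difference of their responses, and of each other list the 3 genes with the smallest p across models are named. Other library values printed, and the genes named in the paragraph on the shared response and on DMSO levels, were chosen after their values were seen. Alternatives covered the pseudocount, the filter, the scaling, the intensity trend, the replicate number, each library in turn and, chosen after seeing the data, transcript length and a crossed pairing in ARP1. Median-ratio scaling moved the median change of all genes by at most 0.03, on a scale that shrinks the change of genes near or under 1 FPKM. The log2 size factors were -0.11 and -0.05 for ARP1 DMSO and 0.19 and 0.14 for ARP1 I3MO. Genes well above 1 FPKM therefore moved down together in ARP1, such as FANCE from -0.30 to -0.52.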

Additional observations from a re-analysis of the deposited data

Results flagged for a closer look

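The I3MO response differed between ANBL6BR and ANBL6, by limma's test of the difference of responses at the same labelled dose, for 5 genes of the list. The difference was -1.1 on the log2(FPKM + 1) scale for UBE2T, which rose in ANBL6 and fell in ANBL6BR. It was -0.73 for CHEK1, -0.61 for FANCL and -0.56 for EXO1, each more negative in ANBL6BR, and 0.68 for BRCA2, more positive there.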

How the results depend on the processing

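Of 949 values of the 73 passed gene and comparison pairs under the alternatives, 709 kept direction and side of the threshold, 239 lost the threshold and 1 reversed: FANCM in ARP1, at -0.0133 with the transcript-length trend removed. Without any 1 library, 41 of the 73 pairs kept their call. The number of genes called moved by over 1.5 times as follows, and the cause was not tested unless the alternative itself tests fewer genes or uses fewer samples. With a pseudocount of 0.1 FPKM the response difference had 3 genes. With no filter ARP1 had 12 and RPMI8226 0. With a stricter filter, 2 FPKM in 4 libraries, U266 had 11. With the length trend removed ANBL6 had 0, RPMI8226 1 and ANBL6BR against ANBL6 25. With only the 4 libraries of a model ANBL6, ANBL6BR and ARP1 had 0 and U266 2. With the replicate block ARP1 had 10, RPMI8226 0, the response difference 2 and the test of equal responses 11. The replicate numbers did not pair the samples: deviations of same-numbered libraries correlated at -0.01, 0.034, -0.113, -0.033 and -0.039 in ANBL6, ANBL6BR, ARP1, RPMI8226 and U266. With the ARP1 numbers crossed in the block, 15 genes passed there. The replicate block was not run for the shared response, which already pairs DMSO and I3MO means by model, or for the joint test of DMSO levels. With 1 library left out the counts ran from 0 to 1 in ANBL6, 6 to 9 in ANBL6BR, 7 to 22 in ARP1, 0 to 0 in RPMI8226, 13 to 15 in U266, 13 to 16 for ANBL6BR against ANBL6, 2 to 5 for the response difference, 0 to 0 for the shared response (where 246 of all genes, none of the list, passed with the length trend removed), 15 to 28 for equal responses and 33 to 33 for equal DMSO levels; a lone library was taken to vary like the other groups. Fragment counts per gene and library went down to 6, so counting error is part of the spread of the lowest genes.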
